A study of Homo sapiens with 15 samples.

Results

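MUC1, MUC5AC, MUC13, TFF1, TFF3, PIGR, AGR2, CEACAM5 and CEACAM6 are genes of the mucus layer and secretory epithelium of the stomach and gut, and these 9 were followed in 2 gastric cancer lines treated with antibody drugs against HER2. They were chosen by name as gastric mucins and secretory epithelial genes. No measured value enters that rule, but the choice was made with earlier results of these data known. Of the 21645 genes in either count table, 7 of the 9 were listed for NCI-N87 and 1, MUC1, for SNU-484. TFF1 and TFF3, the trefoil peptides of mucus-secreting cells, were in neither table and are not analysed here. A gene entered a table with at least 1 count in every library of that line.

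Gastric surface cells secrete MUC5AC, a gel-forming mucin that makes up much of the mucus covering the stomach. MUC1 and MUC13 are membrane-bound mucins at the apical surface, AGR2 is a disulfide isomerase of the endoplasmic reticulum needed for mucin folding, and PIGR is the receptor that carries polymeric IgA across the epithelium. CEACAM5, the carcinoembryonic antigen, and CEACAM6 are related adhesion glycoproteins held in the apical membrane by a lipid anchor.

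RNA was sequenced from 15 libraries, with 3 libraries, labelled biological replicates, for each of 5 groups. NCI-N87 cells, a gastric carcinoma line with amplified HER2, received T-DXd, trastuzumab or vehicle. SNU-484 cells, also labelled gastric carcinoma and described by the authors as low in HER2 without a copy number change, received T-DXd or vehicle. Both drugs were given at 1 µg/ml for 72 h, the vehicle being an acetate buffer with sorbitol. Trastuzumab is a HER2 antibody and T-DXd (trastuzumab deruxtecan) is that antibody joined to the topoisomerase I inhibitor DXd, so the comparison of T-DXd with trastuzumab sets the drug-carrying antibody against the naked one. All cells are labelled wild type. The SNU-484 controls are labelled vehicle while the column names of those libraries carry the letters iso, so whether the controls of both lines were treated alike is unknown.

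The libraries held 47990460 to 64623697 counts in NCI-N87 and 46666533 to 66581448 in SNU-484, and the members had between 72 and 42104 reads each in an NCI-N87 library. NCI-N87 carried its epithelial identity: all 9 genes of an epithelial list were listed, with a summed level of 16192 to 16597 TPM (a level scaled by gene length and depth) with T-DXd and 12805 to 12836 TPM with vehicle. SNU-484 did not: 6 of the 9 were listed, KRT7, KRT18 and KRT19 were not among them, and their sum was 3.32 to 4.08 TPM with T-DXd and 4.85 to 5.06 TPM with vehicle. In SNU-484 a list of 8 mesenchymal genes, 7 of them listed, summed to 742 to 755 TPM with T-DXd and 801 to 825 TPM with vehicle. The markers of SNU-484 went against an epithelial label, and MUC1 alone of the 9 genes was listed there.

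The members span a wide range of levels per length in NCI-N87. CEACAM6 was the most abundant, at 564 ± 1.78 TPM with T-DXd, 309 ± 1.53 TPM with trastuzumab and 287 ± 8.48 TPM with vehicle (SD, n = 3 each). MUC13 followed at 162 ± 1.81 TPM with T-DXd, 141 ± 1.96 TPM with trastuzumab and 126 ± 2.78 TPM with vehicle. AGR2, MUC1 and CEACAM5 came next in that order in each group, between 35.1 and 87.3 TPM on average. PIGR and MUC5AC were low: PIGR averaged 0.84 ± 0.169 TPM with T-DXd, 2.37 ± 0.151 TPM with trastuzumab and 2.06 ± 0.150 TPM with vehicle. MUC5AC averaged 0.900 ± 0.187 TPM with T-DXd, 0.179 ± 0.018 TPM with trastuzumab and 0.225 ± 0.011 TPM with vehicle. Neighbours in the order did not overlap between libraries of a group, except MUC5AC and PIGR with T-DXd, whose ranges did. With vehicle 9.8% of the genes listed in NCI-N87 had a lower TPM than MUC5AC, and 97.7% a lower TPM than CEACAM6.

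**Figure D1:**
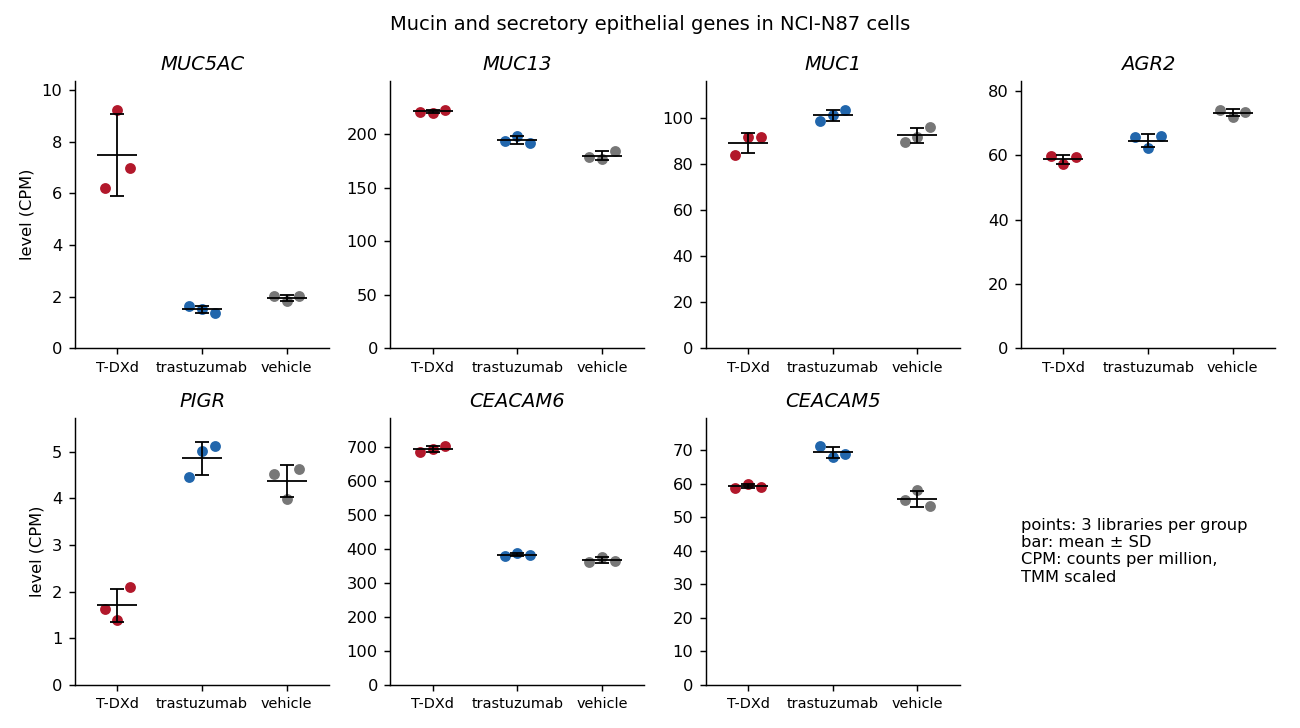
Level of each of the 7 listed genes in the 9 NCI-N87 libraries, in CPM (counts scaled to library size, TMM) on a linear axis from 0, with the 3 libraries of each group as points and the mean ± SD as a bar. MUC5AC and CEACAM6 stood higher with T-DXd than with trastuzumab or vehicle in all libraries, PIGR and AGR2 stood lower, and MUC1 with T-DXd overlapped vehicle.

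CEACAM5 and CEACAM6 lie next to each other on chromosome 19 (GRCh38), at 41708626 to 41730519 and 41755530 to 41772211, with 25010 bases between them. Their promoters are shown because these neighbouring, related genes gave different values with both drugs. The RefSeq windows of GRCh38.p14 run from 250 bases before the gene start to 50 after it, on the plus strand, at chr19:41708376-41708675 for CEACAM5 and chr19:41755280-41755579 for CEACAM6, and capitals mark the palindromic E-box CACGTG.
CEACAM6: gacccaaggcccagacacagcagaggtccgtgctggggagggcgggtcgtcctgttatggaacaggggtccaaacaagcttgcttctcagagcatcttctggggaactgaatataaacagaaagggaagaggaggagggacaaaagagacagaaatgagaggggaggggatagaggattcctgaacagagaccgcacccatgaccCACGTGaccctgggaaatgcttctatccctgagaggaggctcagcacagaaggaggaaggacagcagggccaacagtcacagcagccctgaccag
CEACAM5: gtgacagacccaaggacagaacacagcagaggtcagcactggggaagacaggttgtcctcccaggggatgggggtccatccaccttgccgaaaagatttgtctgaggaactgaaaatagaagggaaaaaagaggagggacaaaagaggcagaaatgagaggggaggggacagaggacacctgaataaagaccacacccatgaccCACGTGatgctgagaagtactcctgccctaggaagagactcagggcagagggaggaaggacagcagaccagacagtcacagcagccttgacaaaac
In a global alignment 230 of 292 aligned bases (78.8%) were identical, and the E-box fell in the same alignment column, its first base 45 bases before the start of CEACAM6 and 46 before that of CEACAM5. CACGTG, which reads alike on both strands, occurred in 7.43% of the 27305 promoter windows in the table, and in none of the other 4 members with a window (MUC1, MUC13, AGR2 and PIGR). This is a description of letters, not of factor binding. No window of 100 bases in the annotated main transcript of CEACAM5 or CEACAM6 occurred in a transcript of another CEACAM, PSG or mucin gene.

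With T-DXd, CEACAM6 rose strongly in NCI-N87 cells and CEACAM5 changed little. CEACAM6 measured 687, 695 and 702 CPM with T-DXd, 379, 388 and 381 CPM with trastuzumab and 362, 376 and 366 CPM with vehicle. The T-DXd libraries lay above all others by a wide margin. Against vehicle the log2 fold change was 0.92 ± 0.02 (SE), a 1.89-fold rise (edgeR quasi-likelihood test, adjusted p = 4.38e-14), and 92.3% of the genes tested changed by less. With trastuzumab CEACAM6 had a log2 fold change of 0.06 ± 0.02 against vehicle (unadjusted 95% interval 0.01 to 0.11), which did not pass the test (edgeR adjusted p = 0.165). The 3 trastuzumab libraries lay just above those of vehicle.

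CEACAM5 measured 58.8, 59.8 and 58.9 CPM with T-DXd, 71.1, 67.9 and 68.9 CPM with trastuzumab and 55.2, 58.1 and 53.3 CPM with vehicle. Trastuzumab thus gave the highest values, above every library of the other groups. CEACAM5 rose with trastuzumab by a log2 fold change of 0.32 ± 0.03, or 1.25-fold (edgeR adjusted p = 3.64e-05). Its difference with T-DXd, 0.09 ± 0.03 (edgeR adjusted p = 0.0264), was lost when vehicle replicate 1 or 3 or T-DXd replicate 2 was left out (adjusted p = 0.071, 0.148 and 0.0734), and with limma on log2 TPM (0.108). With T-DXd CEACAM5 was lower than with trastuzumab, by a log2 fold change of -0.23 ± 0.03 (edgeR adjusted p = 1.92e-05).

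The number of CEACAM6 reads per CEACAM5 read shows the split within each library. It was 11.7, 11.6 and 11.9 with T-DXd, 5.33, 5.71 and 5.54 with trastuzumab and 6.55, 6.48 and 6.86 with vehicle. The 3 groups did not overlap. The log2 ratio was higher by 0.82 ± 0.03 (SE) with T-DXd than with vehicle, and differed by -0.26 ± 0.04 between trastuzumab and vehicle (exact permutation test, two-sided, p = 0.1 for each, the smallest that 3 against 3 libraries allow).

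**Figure D2:**
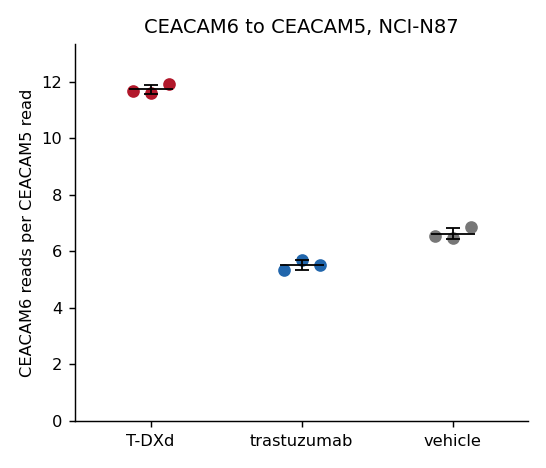
CEACAM6 reads per CEACAM5 read in each NCI-N87 library, on a linear axis from 0, with 3 libraries per group as points and the mean ± SD as a bar. The T-DXd libraries sit at 11.6 to 11.9, against 5.33 to 5.71 with trastuzumab and 6.48 to 6.86 with vehicle.

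Among the mucins, MUC5AC changed most. This gene on chromosome 11 (1157953 to 1201138, GRCh38) had 380, 544 and 407 reads with T-DXd, 82, 72 and 90 with trastuzumab and 116, 95 and 120 with vehicle, or 6.20, 9.25 and 6.99 CPM, 1.64, 1.5 and 1.37 CPM, and 2.02, 1.83 and 2.01 CPM in the same order. T-DXd libraries exceeded all others, and their own spread was the widest of the 3 groups. MUC5AC rose with T-DXd by a log2 fold change of 1.93 ± 0.15, or 3.82-fold (edgeR adjusted p = 7.71e-09), and 99.4% of the genes tested changed by less. Against trastuzumab it was 4.98-fold higher with T-DXd (edgeR adjusted p = 1.53e-09). With trastuzumab its log2 fold change against vehicle was -0.38 ± 0.17 (unadjusted 95% interval -0.73 to -0.03). This did not pass the test (edgeR adjusted p = 0.167), although these groups did not overlap. In the annotated MUC5AC transcript, 10.5% of 100-base windows recur within the gene. How reads from there were placed was not tested.

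MUC13 (chromosome 3, 124905442 to 124934751) measured 221, 220 and 223 CPM with T-DXd, 194, 199 and 192 CPM with trastuzumab and 179, 177 and 184 CPM with vehicle. The 3 groups were cleanly ordered, T-DXd highest and vehicle lowest. MUC13 rose by a log2 fold change of 0.30 ± 0.03, or 1.23-fold, with T-DXd (edgeR adjusted p = 2.67e-08) and by 0.11 ± 0.03 with trastuzumab (edgeR adjusted p = 0.00981). T-DXd exceeded trastuzumab by 0.18 ± 0.03 (edgeR adjusted p = 8.45e-06).

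MUC1 (chromosome 1, 155185824 to 155192915) measured 84.0, 91.7 and 91.5 CPM with T-DXd, 98.4, 101 and 104 CPM with trastuzumab and 89.6, 91.6 and 95.9 CPM with vehicle. T-DXd and vehicle overlapped and trastuzumab stood above both. The difference between T-DXd and vehicle was -0.05 ± 0.03 on the log2 scale (95% interval -0.13 to 0.02, edgeR adjusted p = 0.205), while limma on log2 TPM, which divides by length and scales differently, gave -0.12 ± 0.04 (adjusted p = 0.0113). The rise with trastuzumab, 0.13 ± 0.03 (edgeR adjusted p = 0.0277), lost its call without vehicle replicate 1 or 2 or trastuzumab replicate 2 or 3, with adjusted p = 0.126, 0.1, 0.0665 and 0.114. T-DXd lay below trastuzumab by -0.18 ± 0.03 (edgeR adjusted p = 0.000263).

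AGR2 and PIGR, the folding enzyme and the immunoglobulin carrier, fell with T-DXd. AGR2 (chromosome 7, 16791811 to 16804999) measured 59.8, 57.2 and 59.4 CPM with T-DXd, 65.5, 62.2 and 65.9 CPM with trastuzumab and 74.2, 71.9 and 73.6 CPM with vehicle. No library of one group overlapped another group. AGR2 fell by 0.32 ± 0.03 on the log2 scale with T-DXd (edgeR adjusted p = 1.72e-07) and by 0.18 ± 0.03 with trastuzumab (edgeR adjusted p = 0.00173, and 0.0658 with limma on log2 TPM).

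PIGR (chromosome 1, 206928522 to 206946466) had 100, 82 and 122 reads with T-DXd, 222, 240 and 336 with trastuzumab and 259, 207 and 276 with vehicle. Scaled to depth this was 1.63, 1.39 and 2.1 CPM, 4.45, 5.00 and 5.11 CPM, and 4.52, 3.98 and 4.63 CPM in the same order. Every T-DXd library fell below every other library, and trastuzumab overlapped vehicle. PIGR fell by 1.36 ± 0.14 on the log2 scale with T-DXd against vehicle (edgeR adjusted p = 4.34e-07), to 0.390 of the vehicle level, and 97.5% of the genes tested changed by less. With trastuzumab it differed from vehicle by 0.15 ± 0.13 (95% interval -0.13 to 0.43, edgeR adjusted p = 0.557).

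**Figure D3:**
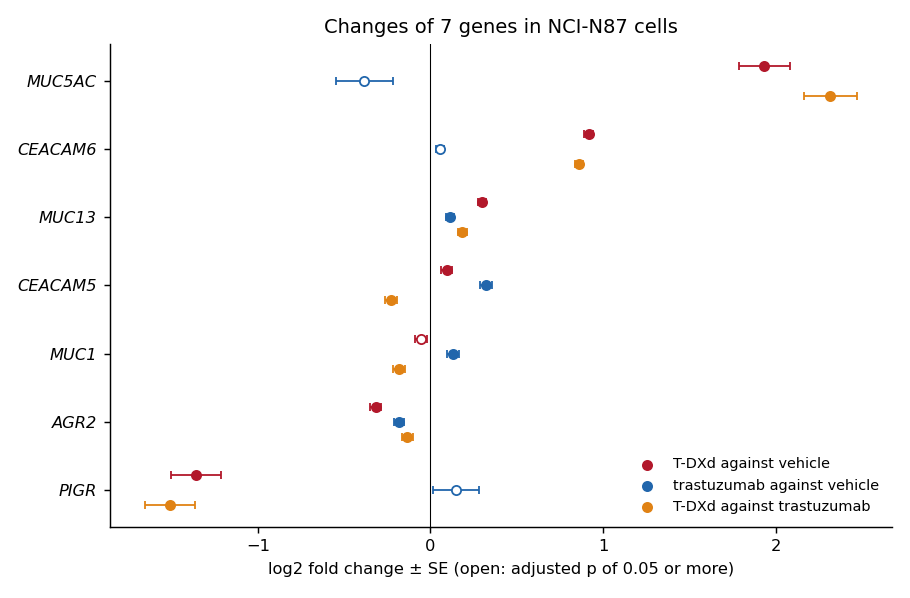
Log2 fold change ± SE of the 7 genes in the 3 comparisons of NCI-N87 groups, in order of the change with T-DXd against vehicle, filled where the adjusted p was under 0.05 and open otherwise. MUC5AC (1.93) and CEACAM6 (0.92) lie far to the right and PIGR (-1.36) far to the left with T-DXd, and all 3 points of these genes for trastuzumab against vehicle are open. T-DXd against vehicle shares its vehicle libraries with trastuzumab against vehicle and its T-DXd libraries with T-DXd against trastuzumab.

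In counts, 6 of the 7 members were called with T-DXd against vehicle, 4 higher and 2 lower, where 58.6% of all 17394 genes tested were called (29.1% higher and 29.5% lower). With so many genes called, that share of members is not a result about the members. With trastuzumab 4 of 7 were called, 3 higher and 1 lower, where 9.74% of genes were called (3.65% higher and 6.09% lower, a split that changed with the scaling). That background of 1695 genes was 1055 without vehicle replicate 1, 993 without vehicle replicate 3, 1108 without trastuzumab replicate 1 and 744 with limma on log2 TPM. With T-DXd against trastuzumab all 7 were called, 3 higher and 4 lower, where 57.7% of genes were called (28.3% higher and 29.4% lower). In the same order, groups did not overlap in CPM for 6, 6 and 7 members, and for 63.4%, 28.3% and 62.1% of all genes tested. The median log2 fold change of the 7 was 0.09, 0.11 and -0.13 in these comparisons, against -0.01, 0.01 and -0.02 over all genes tested. In bulk RNA a lower level can be fewer cells that express a gene or less RNA per cell, and these cannot be told apart.

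In SNU-484 cells T-DXd raised MUC1. MUC1 had 706, 652 and 593 reads with T-DXd and 325, 413 and 452 with vehicle, or 10.4, 10.7 and 12.7 CPM with T-DXd and 5.63, 6.59 and 7.22 CPM with vehicle. The groups did not overlap, which held for 41.1% of the genes tested in this line. The log2 fold change was 0.80 ± 0.12, a 1.74-fold rise (edgeR adjusted p = 0.00336), in a comparison where 20.9% of the 16876 genes tested were called (11.2% higher and 9.65% lower) and 96.2% changed by less. Leaving out 1 library moved the number of genes called in this line, 3526 with all libraries, to between 1466 (without vehicle replicate 2) and 5477 (without T-DXd replicate 3), and MUC1 stayed called in each, with log2 fold changes of 0.71 to 0.88.

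The effect of T-DXd on MUC1 differed between the lines. The log2 change in NCI-N87 minus that in SNU-484 was -0.82 ± 0.12 (95% interval -1.07 to -0.57, edgeR adjusted p = 0.000102), where 41.8% of the 14704 genes tested across both lines differed (22.5% higher and 19.4% lower). The lines also differed at the start. With both lines scaled together MUC1 measured 99.99 ± 3.41 CPM in NCI-N87 vehicle libraries and 6.49 ± 0.772 CPM in SNU-484 vehicle libraries (SD, n = 3 each), a 15.4-fold difference (edgeR adjusted p = 8.23e-15), where 85.3% of genes differed (42% higher and 43.3% lower). The authors' TPM gave a smaller ratio, with MUC1 at 66.3 ± 1.77 TPM in NCI-N87 vehicle libraries and 6.85 ± 0.776 TPM in SNU-484 vehicle libraries. With T-DXd it measured 98.0 ± 4.68 CPM in NCI-N87 and 11.3 ± 1.27 CPM in SNU-484, so SNU-484 stayed far below. Line, HER2 level, culture and any difference in controls cannot be told apart here.

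**Figure D4:**
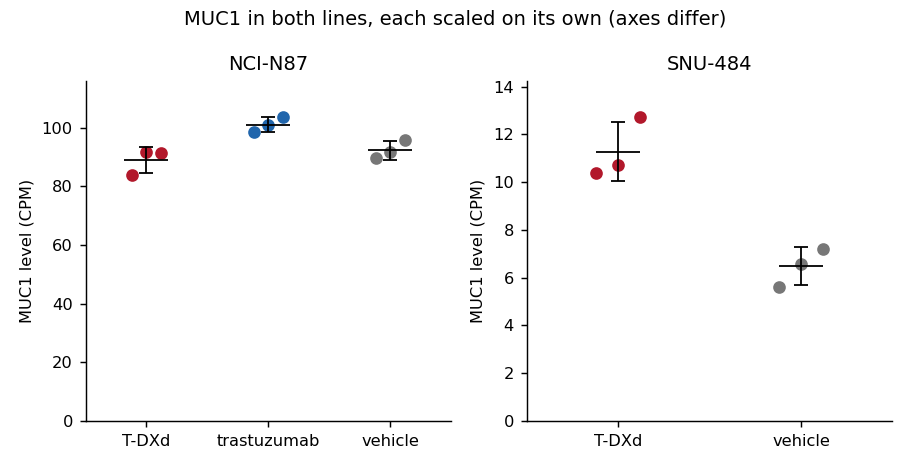
MUC1 level in CPM in NCI-N87 (left) and SNU-484 (right), each line scaled on its own and on its own linear axis from 0, with 3 libraries per group as points and the mean ± SD as a bar. With T-DXd the SNU-484 libraries (10.4 to 12.7 CPM) lie above vehicle (5.63 to 7.22 CPM), while the NCI-N87 libraries (84.0 to 91.7 CPM) overlap vehicle (89.6 to 95.9 CPM).

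Other lists moved in SNU-484 beside MUC1. Of 8 leukocyte markers 2 were listed, summing to 28.8 to 41.4 TPM with T-DXd and 47.0 to 52.5 TPM with vehicle, with PTPRC at 90.7 ± 14.8 CPM with T-DXd and 121 ± 6.92 CPM with vehicle (edgeR adjusted p = 0.03) and CD3D, CD3E, MS4A1, CSF1R and FCGR3A among those not listed. Of 8 fibroblast and endothelial markers 5 were listed, summing to 531 to 689 TPM with T-DXd and 491 to 547 TPM with vehicle. Among them DCN (log2 fold change 0.63), LUM (0.35) and COL3A1 (0.30) rose and COL1A1 (-0.47) fell. Their part in the MUC1 result was not tested.

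The same lists were low in NCI-N87, and the fibroblast and endothelial list was higher with T-DXd than with vehicle. Of the leukocyte list CD14 alone was listed, with 0.07 to 0.32 TPM with T-DXd and 0.09 to 0.40 TPM with vehicle, and of the fibroblast and endothelial list 2 were listed, summing to 2.77 to 3.65 TPM with T-DXd and 0.73 to 0.84 TPM with vehicle. COL1A1, a collagen, rose to 8.67 ± 1.24 CPM with T-DXd, against 2.13 ± 0.148 CPM with vehicle, and FN1, fibronectin, to 64.6 ± 0.950 CPM with T-DXd, against 25.2 ± 1.01 CPM with vehicle. FN1 was the 1 of 4 mesenchymal genes tested that rose, 1 fell (TWIST1, -1.73, named after its value was seen) and 2 did not pass, with a median log2 fold change of -0.19. Of the 9 epithelial genes 6 rose and 2 fell with T-DXd, with a median of 0.19. The keratins KRT7 (0.76), KRT18 (0.41) and KRT8 (0.33) and the cadherin CDH1 (0.60) rose with T-DXd on the log2 scale, and CLDN4 (-0.13) and ESRP2 (-0.15), named after their values were seen, fell. EPCAM, an epithelial adhesion protein, measured 508 ± 9.30 CPM with T-DXd and 517 ± 4.21 CPM with vehicle (edgeR adjusted p = 0.389).

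Foveolar and mucous neck genes, the genes of the gastric surface and gland neck, had 8 of the 15 in their list tested in NCI-N87 cells. With T-DXd 7 rose and 1 fell against vehicle, with a median log2 fold change of 0.70, against -0.01 over all genes tested. Counts in this and the other lists stand beside a background in which 58.6% of all genes were called with T-DXd, 29.1% higher and 29.5% lower, 9.74% with trastuzumab and 20.9% in SNU-484, so a share of calls alone is not particular to a list. CTSE, an aspartic protease of surface mucous cells, measured 87.5 ± 4.90 CPM with T-DXd and 34.7 ± 0.626 CPM with vehicle, and CAPN8, a calpain of the same cells in mouse, 64.3 ± 2.44 CPM with T-DXd and 26.7 ± 0.449 CPM with vehicle. BPIFB1 and CYP2S1 rose by 0.92 ± 0.15 and 0.56 ± 0.05 on the log2 scale (edgeR adjusted p = 6.69e-05 and 1.16e-08). CTSE, CAPN8, BPIFB1 and CYP2S1 were picked by size of change, and the value of the 1 gene that fell is not given here. With trastuzumab 2 of the 8 rose and 1 fell, and the median was 0.04. When T-DXd was set against trastuzumab, 4 of the 8 were higher, 1 was lower and 3 did not pass, with a median of 0.33.

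Of 14 other mucins 9 were tested with T-DXd, of which 5 rose, 1 fell and 3 did not pass, with a median log2 fold change of 0.51. MUC4, a membrane mucin that can bind HER2, measured 426 ± 12.2 CPM with T-DXd and 204 ± 6.45 CPM with vehicle (log2 fold change 1.06 ± 0.03, edgeR adjusted p = 6.18e-14). MUC20, a smaller membrane mucin, rose by 0.51 ± 0.03 and MUC3A, an intestinal membrane mucin, fell by 0.44 ± 0.07. With trastuzumab 4 of the 9 rose and none fell, with a median of 0.26, among them MUC4 at 0.30, MUC3A at 0.32 and MUC20 at 0.24. In SNU-484 cells 5 were tested and 0 passed in edgeR (2 at an unadjusted p under 0.05, and 0 in DESeq2), with a median of -0.30. MUC15 measured 20.0 ± 1.87 CPM with T-DXd and 22.4 ± 0.606 CPM with vehicle, and MUC3A 0.772 ± 0.133 CPM with T-DXd and 1.21 ± 0.184 CPM with vehicle.

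Of the other CEACAM genes 3 of 10 were tested in NCI-N87, of which 2 rose with T-DXd and 1 did not pass (CEACAM7, -0.42 ± 0.35). CEACAM1, an adhesion receptor with a signalling tail, rose with T-DXd by 0.86 ± 0.03 on the log2 scale (67.3 ± 1.5 CPM with T-DXd and 37.0 ± 0.734 CPM with vehicle, edgeR adjusted p = 1.69e-12). With trastuzumab it rose by 0.14. CEACAM19 rose by 0.27 ± 0.08 with T-DXd (edgeR adjusted p = 0.0109) and by 0.30 ± 0.08 with trastuzumab (edgeR adjusted p = 0.0328).

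Of 24 intestinal differentiation genes 14 were tested, of which 3 rose, 7 fell and 4 did not pass with T-DXd, with a median log2 fold change of -0.33, where 29.1% of all genes rose and 29.5% fell. TM4SF4, a four-span membrane protein, fell to 3.78 ± 0.220 CPM with T-DXd, against 13.1 ± 1.25 CPM with vehicle, and CDX2, the homeobox factor of intestinal identity, to 39.3 ± 0.921 CPM against 58.1 ± 2.78 CPM. CDH17, an intestinal cadherin, and KRT20, a keratin of differentiated gut cells, fell by 0.36 ± 0.02 and 0.30 ± 0.09 (edgeR adjusted p = 1.28e-09 and 0.0076). TM4SF4, CDX2, CDH17 and KRT20 were picked by size of change, and the values of the 3 genes that rose are not given here. With trastuzumab 5 of the 14 rose and 1 fell, with a median of 0.06. The 15 chief, parietal and endocrine cell genes left 3 tested, of which 1 rose, 1 fell and 1 did not pass, with a median of 0.19. KCNQ1, a potassium channel of parietal cells, fell to 35.4 ± 1.08 CPM with T-DXd, against 68.0 ± 1.01 CPM with vehicle, and GAST, the hormone gastrin, named after its value was seen, rose by 0.88 ± 0.18.

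The transcription factors of secretory epithelium were 23 tested of 27, of which 6 rose and 13 fell with T-DXd, with a median of -0.19. With trastuzumab 0 of 23 passed in edgeR, where 3 had an unadjusted p under 0.05, and DESeq2 called 1. HNF4G, a nuclear receptor of gut epithelium, fell by 0.83 ± 0.04, and KLF4 and GRHL1, factors of epithelial differentiation, rose by 0.56 ± 0.04 and 0.46 ± 0.05. In SNU-484 TFCP2L1 (-0.64) and KLF5 (-0.49) fell and none of the 15 tested rose.

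**Figure D5:**
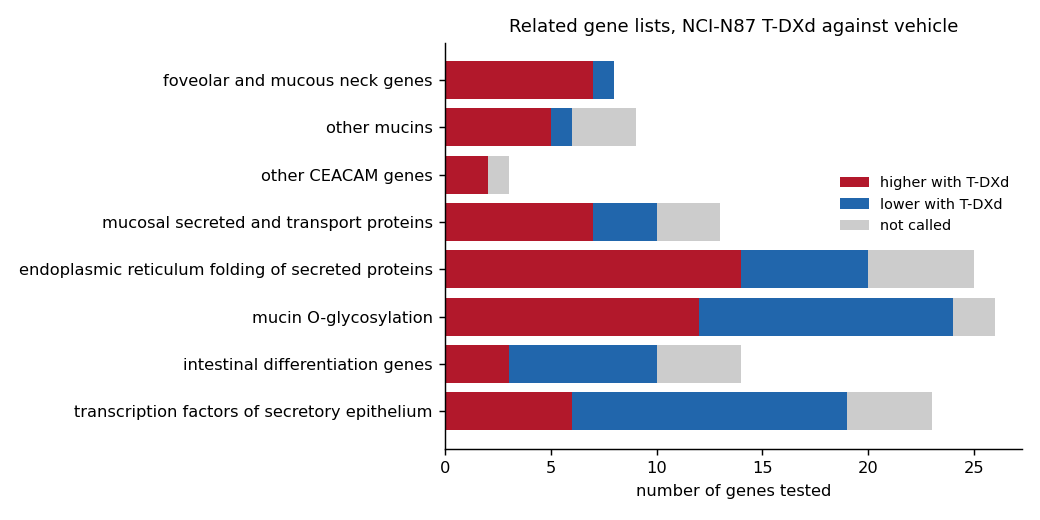
Number of genes tested in 8 related lists that were higher (red), lower (blue) or not called (grey) in NCI-N87 with T-DXd against vehicle, at an adjusted p under 0.05. The foveolar list has 7 higher and 1 lower of 8, the intestinal list 3 higher and 7 lower of 14, and the O-glycosylation list 12 and 12 of 26.

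The machinery that builds mucins was split. Of 26 mucin O-glycosylation genes tested 12 rose and 12 fell with T-DXd, with a median of -0.12. GALNT5, of the family that starts O-glycan chains, rose to 23.5 ± 0.422 CPM with T-DXd, against 8.26 ± 0.282 CPM with vehicle, and its relative GALNT18 fell to 8.03 ± 0.877 CPM, against 13.8 ± 0.315 CPM. FUT1, a fucosyltransferase that makes the H antigen, rose by 0.70 ± 0.09 and B3GALT5, a galactosyltransferase, fell by 0.62 ± 0.14. In SNU-484 3 of 16 rose and none fell: ST6GALNAC2, a sialyltransferase of O-glycans, at 18.5 ± 0.717 CPM with T-DXd and 7.49 ± 0.153 CPM with vehicle, GALNT12 (0.30) and GALNT1 (0.21).

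Of 25 genes that fold secreted proteins in the endoplasmic reticulum 14 rose and 6 fell with T-DXd in NCI-N87, with a median of 0.07, and none rose and 7 fell with trastuzumab. AGR3, the neighbour and relative of AGR2, fell to 27.5 ± 1.08 CPM with T-DXd, against 39.1 ± 0.756 CPM with vehicle, a log2 fold change of -0.51 ± 0.04. ERN2, a stress sensor of mucosal epithelium, fell by 0.60 ± 0.06, and its widely expressed relative ERN1 rose by 0.38 ± 0.06, as did the co-chaperone DNAJB9 by 0.70 ± 0.10. In SNU-484 1 rose and 6 fell of 24: HSPA5 (-0.31), HSP90B1 (-0.29) and CANX (-0.23), all chaperones, fell, and DNAJB9 (0.26) rose.

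Mucosal secreted and transport proteins had 7 higher and 3 lower of 13 tested with T-DXd in NCI-N87, with a median of 0.39. AQP3, a water and glycerol channel, measured 223 ± 18.8 CPM with T-DXd and 104 ± 3.30 CPM with vehicle, and CLU, the secreted chaperone clusterin, 101 ± 1.95 CPM with T-DXd and 53.8 ± 0.671 CPM with vehicle. CA2, a carbonic anhydrase, rose by 0.75 ± 0.07. CCL28, the mucosal chemokine that draws IgA-producing cells, rose by 0.63 ± 0.09. AQP3, CLU, CA2 and CCL28 were picked by size of change, and the values of the 3 genes that were lower are not given here. In SNU-484 CCL28 rose by 0.29 ± 0.07 and KCNN4, a potassium channel, fell by 0.33 ± 0.10.

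In SNU-484 few genes of the remaining lists were called. PSCA, a membrane-anchored antigen of gastric and prostate epithelium, was called higher at a very low level, 0.615 ± 0.194 CPM with T-DXd and 0.192 ± 0.029 CPM with vehicle (edgeR adjusted p = 0.0103), and AQP5, a water channel of secretory glands, measured 0.651 ± 0.080 CPM with T-DXd and 0.923 ± 0.106 CPM with vehicle. CDX2 measured 7.58 ± 1.02 CPM with T-DXd and 7.19 ± 0.401 CPM with vehicle (edgeR adjusted p = 0.694). VIM, the mesenchymal filament vimentin, measured 702 ± 43.5 CPM with T-DXd and 746 ± 4.71 CPM with vehicle, and ZEB1, a repressor of epithelial genes, 46.8 ± 7.22 CPM with T-DXd and 52.0 ± 4.90 CPM with vehicle. Of the 7 mesenchymal genes tested there 1 passed, FN1, which rose by 1.34 ± 0.34 to 2.07 ± 0.593 CPM with T-DXd, against 0.824 ± 0.383 CPM with vehicle (edgeR adjusted p = 0.0238). EPCAM, KRT8, ANPEP, CHGA, KCNQ1 and CEACAM19 lay at 0.634 to 2.65 CPM on average, and none of them passed. Of the 5 epithelial genes tested 1 passed, CLDN4, which fell by 1.10 ± 0.30 on the log2 scale (edgeR adjusted p = 0.0313) and was named after its value was seen.

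Over the 9 NCI-N87 libraries, genes were ranked by how closely their log2 CPM, relative to the vehicle mean, followed each member, among the 10458 genes whose log2 CPM averaged 3 or more. The closest to CEACAM6 were LMO7 and APLP2, with root mean square differences of 0.03 each, and to MUC5AC TNS4 and NES, with 0.18 and 0.30. PIGR was closest to CXCL5 (0.15) and TAGLN (0.16), MUC13 to USP54 and ANXA3 (0.02 each), and AGR2 to PMM2 and PRMT1 (0.03 each). MUC1 was closest to PCED1A and ZFP57 (0.04 each), and CEACAM5 to YPEL2 (0.05) and GLB1L (0.07). Of all pairs of members the nearest were MUC1 and CEACAM5 (0.15), and CEACAM5 and CEACAM6 differed by 0.50.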

How the data were processed

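Per the labels and the submitters' processing notes, the authors used Trimmomatic 0.38 for trimming, HISAT2 2.1.0 for alignment (GRCh38) and StringTie 2.1.3b for quantification. The annotation release, the read length and whether counting used strand are not given in the sources used here. The libraries came from a stranded kit. The authors deposited counts, whole reads per gene and library, and TPM, which they scaled for gene length and depth. Other columns per library (18 for NCI-N87, 12 for SNU-484) and the columns of the authors' own comparisons (18 and 6, fold changes and p-values) were not used.

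Counts were tested with the quasi-likelihood test of edgeR 4.0.16 (R 4.3.3), after TMM scaling and filterByExpr at 10 counts and a total of 15, with the 9 NCI-N87 libraries in 1 fit, the 6 SNU-484 libraries in another and the 12 vehicle and T-DXd libraries in a separate one. The numbers of genes tested were 17394, 16876 and 14704. P-values were adjusted over all genes tested, and a call is an adjusted p under 0.05. A 95% interval uses the SE and the fit's degrees of freedom. CPM values are TMM scaled. The TPM values were used for levels between genes. Positions and promoters are from RefSeq GRCh38.p14 (6 of 9 members had a promoter window) and transcripts from GENCODE, whose releases may differ from the authors'. Alternatives were DESeq2 1.42.0, scaling by upper quartile or RLE, testing without a filter or only genes with 10 counts in all libraries, a replicate block, the compared groups alone, each library left out and, chosen after seeing the data, limma 3.58.1 on log2(TPM + 0.1). The edgeR step was tested on simulated data.

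The members and lists were chosen with earlier results of these data known, and the lists were written from general knowledge. Named genes are the members, up to 4 called genes per list of the largest change whose log2 CPM averaged 1 or more in T-DXd against vehicle of either line (otherwise up to 2 with the highest CPM), and the 2 genes closest to each member. Some of them are also given for another comparison, and some genes that the rule picks are not reported here. Genes not listed in a table are not analysed here.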

Additional observations from a re-analysis of the deposited data

Results flagged for a closer look

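MUC1 is singled out because its response to T-DXd differed between the lines by a test of the difference itself: the log2 change in NCI-N87 minus that in SNU-484 was -0.82 ± 0.12 (edgeR adjusted p = 0.000102). No other member was listed for both lines, so MUC1 alone could be tested, and 41.8% of the 14704 genes tested differed. MUC1 overlapped vehicle in NCI-N87 and rose 1.74-fold in SNU-484, higher in 3 of 3 libraries than in any vehicle library. In SNU-484 41.1% of the genes tested likewise did not overlap between T-DXd and vehicle. The difference between the lines ranged from -0.91 to -0.74 with each library left out and stayed called in each.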

How the results depend on the processing

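No log2 fold change of a member changed direction under any alternative run. The number of genes called with trastuzumab against vehicle in NCI-N87, 1695, was 744 with limma on log2 TPM and 993 to 1820 with 1 library left out, and lowest without vehicle replicate 3 (993), vehicle replicate 1 (1055) and trastuzumab replicate 1 (1108). The number called in SNU-484, 3526, was 1466 to 5477 with 1 library left out: 1726, 1466 and 1666 without vehicle replicates 1, 2 and 3, and 1836 and 5477 without T-DXd replicates 2 and 3. Of the genes called with trastuzumab 37.5% were higher, against 48.0% with upper-quartile factors and 73.9% with limma on log2 TPM, and of those that differed between the lines' T-DXd effects 53.7%, against 43.3% with upper-quartile factors. Smaller moves were 49.7% to 59.0% with limma on log2 TPM for T-DXd in NCI-N87 and 53.8% to 61.4% with upper-quartile factors in SNU-484. The cause was not tested. CEACAM6 with trastuzumab passed with limma on log2 TPM (0.11, adjusted p = 0.0295). Whether replicate numbers pair the samples is not settled. Correlations of deviations were -0.01 to 0.10 in NCI-N87, and 0.195, -0.062 and 0.201 for replicates 1, 2 and 3 in SNU-484. With a replicate block 6, 4 and 7 members were called in NCI-N87 with T-DXd and with trastuzumab against vehicle and with T-DXd against trastuzumab. In SNU-484 the block raised the genes called from 3526 to 4768, with MUC1 at 0.80 ± 0.09 (edgeR adjusted p = 0.000379). MUC1 kept its calls with the block. MUC5AC and PIGR rest on the fewest reads and have the widest errors of the members.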

Other observations

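MUC5AC lies in a row of gel-forming mucin genes on chromosome 11 with MUC2 before it and MUC5B after it. These neighbours were looked at after the values of MUC5AC were seen. MUC2 and MUC5B are already counted in the list of other mucins above, so their values are not a separate result. MUC2 had 44, 59 and 51 reads in NCI-N87 libraries with T-DXd and 12, 11 and 17 with vehicle, a log2 fold change of 1.86 ± 0.29 (edgeR adjusted p = 2.87e-05). The groups did not overlap, which held in CPM for 63.4% of all genes tested. MUC5B, at 1.42 ± 0.473 CPM with T-DXd and 0.998 ± 0.356 CPM with vehicle, did not pass (0.50 ± 0.28, edgeR adjusted p = 0.131). The flanking genes outside the mucins, AP2A2 and TOLLIP, rose by 0.23 ± 0.03 and 0.38 ± 0.03.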
